A study of Mus musculus with 9 samples.

Results

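The genes described here build the cornified envelope, the protein shell of squamous epithelia such as the epidermis and the oesophagus. They comprise every protein-coding gene of mouse chromosome 3 whose symbol starts with Sprr (14 genes) or Lce (21 genes), the chromosome 3 genes Ivl, Lor, Flg, Flg2, Rptn, Hrnr and Tchh, and the transglutaminase genes Tgm1, Tgm3 and Tgm5 on other chromosomes. These are 45 of 21887 protein-coding genes in the mm10 RefSeq table. They were chosen by name and position, with earlier results of these data known. A member was counted as near a binding summit when the summit, the position of highest signal in a listed region, lay inside its annotated span or within 50 kb of it (100 kb for the Tgm genes).

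During terminal differentiation, keratinocytes deposit involucrin beneath the plasma membrane, add loricrin and small proline-rich proteins, and finish with late cornified envelope proteins, while transglutaminases cross-link the shell into an insoluble layer. Most of the structural genes sit side by side in the epidermal differentiation complex, a gene cluster of chromosome 3. Sox2, a transcription factor, is found in the developing and adult oesophagus and in the conducting airways, whereas Nkx2-1 is the factor on which lung identity depends.

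Binding of Sox2 was assayed by ChIP-seq (chromatin immunoprecipitation followed by sequencing, here with single reads of 50 bases) in lung epithelial cells of C57BL/6 mice aged 8 weeks, in cells with ectopic Sox2 expression and Nkx2-1 deletion, in cells with ectopic Sox2 expression alone, and in wildtype cells. The series holds 9 libraries, for each condition an input, an IgG and a Sox2 ChIP library, of which the 3 for Sox2 come with summit lists and are used here. The sources used here do not give how Sox2 was expressed, how Nkx2-1 was deleted or whether cells of several animals were pooled. With 1 library per condition, differences between conditions have no replicate check, and p-values between conditions are not given. A summit list holds no expression values, so the cell type, the Sox2 expression and the Nkx2-1 deletion are as labelled and could not be checked.

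Summits numbered 2589 in the library with ectopic Sox2 and Nkx2-1 deletion, 229 in the library with ectopic Sox2 and 552 in wildtype. The listed values allow the number of ChIP fragments at each summit to be recovered, together with the mean coverage of the library, which was 1.45 fragments per position with Nkx2-1 deletion, 0.764 with ectopic Sox2 alone and 0.963 in wildtype. Intervals on fragments are exact Poisson 95% intervals and cover counting error only.

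The sequences that matter most here lie directly before the Sprr2a genes, where summits were listed in both libraries with ectopic Sox2. Sprr2a1, Sprr2a2 and Sprr2a3 are tandem copies of a gene for a small proline-rich protein, and Sprr2b is the next gene of the family. The 250 bases before each annotated start site are shown from RefSeq (GRCm38.p6, the same build as mm10, plus strand), at chr3:92215585-92215834 for Sprr2a1, chr3:92285054-92285303 for Sprr2a3 and chr3:92316455-92316704 for Sprr2b. Capitals mark matches to ACAAAG (a SOX core), TGANTCA (AP-1), ATTTGCAT (the octamer bound by POU factors) and TATAAA (the TATA box).
Sprr2a1: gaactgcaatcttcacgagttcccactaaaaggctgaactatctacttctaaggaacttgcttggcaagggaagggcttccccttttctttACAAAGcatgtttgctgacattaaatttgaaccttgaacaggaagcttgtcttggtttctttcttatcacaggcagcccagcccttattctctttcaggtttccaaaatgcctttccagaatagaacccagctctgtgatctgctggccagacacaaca
Sprr2a3: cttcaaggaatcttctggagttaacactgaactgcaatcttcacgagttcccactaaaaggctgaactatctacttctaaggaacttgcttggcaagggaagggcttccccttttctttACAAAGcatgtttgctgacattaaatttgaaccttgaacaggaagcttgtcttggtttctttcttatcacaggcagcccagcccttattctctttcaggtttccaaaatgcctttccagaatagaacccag
Sprr2b: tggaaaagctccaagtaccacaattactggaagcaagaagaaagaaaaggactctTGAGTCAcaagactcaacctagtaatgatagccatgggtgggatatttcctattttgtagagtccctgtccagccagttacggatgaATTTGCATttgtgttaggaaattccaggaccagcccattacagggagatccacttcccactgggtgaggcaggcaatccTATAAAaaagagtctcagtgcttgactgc

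The sequence before Sprr2a2 (chr3:92250397-92250646) has the same letters as that before Sprr2a1. In windows that run from 250 bases before to 50 bases after the start site, Sprr2a1 and Sprr2a2 were identical over all 300 bases. The Sprr2a3 window held an identical run of 272 bases, moved by 28 bases because its start site is annotated further upstream within the same sequence. Every stretch of 50 bases, the read length, in the Sprr2a1 window therefore recurs before at least 1 of the other copies (251 of 251 stretches in Sprr2a2 and 223 of 251 in Sprr2a3). No stretch of 50 bases in the Sprr2b window, or in that of any other Sprr gene, recurred in the window of another protein-coding gene. A 50-base read from the shared sequence cannot be assigned to 1 copy, so the values of the 3 copies are uncertain one by one and are best read together. The sequence further upstream was not analysed here.

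With Nkx2-1 deletion, 8 of the 45 genes had a summit in their window (17.8%): Sprr2a1, Sprr2a2, Sprr2a3, Sprr2b, Sprr4, Ivl, Tgm3 and Tgm5. With ectopic Sox2 alone there were 3 (6.67%), Sprr2a1, Sprr2a2 and Sprr2a3, and in wildtype there were 0. The background, the share over all 21887 genes at 50 kb, was 13.1% with Nkx2-1 deletion, 1.53% with ectopic Sox2 alone and 2.85% in wildtype. At 100 kb, the Tgm window, it was 20.7% with Nkx2-1 deletion, 2.45% with ectopic Sox2 alone and 4.66% in wildtype. With 50 kb for every gene, 7 of the 45 were near a summit with Nkx2-1 deletion (on 8 separate summits), since Tgm3 drops out. There were 3 with ectopic Sox2 alone and 0 in wildtype. The share of members with Nkx2-1 deletion is thus near the background. With 100 kb for every gene, 15 of the 45 were near a summit with Nkx2-1 deletion (on 10 separate summits), 5 with ectopic Sox2 alone (on 2) and 0 in wildtype. The library with Nkx2-1 deletion was 1.90 times as deep as that with ectopic Sox2 and 1.51 times as deep as wildtype, and in these counts depth and condition cannot be told apart. Members share summits, because neighbouring genes lie within the same window: the 8 genes rested on 9 separate summits with Nkx2-1 deletion, and the 3 genes on 2 summits with ectopic Sox2. Of the 9 summits, 6 were at the Sprr2a copies.

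Within 10 kb the Sprr2a copies were the only members with a summit, 3 genes with Nkx2-1 deletion (background 6.47%), 2 with ectopic Sox2 alone (0.736%) and 0 in wildtype (1.37%). Counting summits with a −log10 q of at least 5, there were 5 genes with Nkx2-1 deletion (background 8.83%), 3 with ectopic Sox2 alone (1.18%) and 0 in wildtype (1.88%). With a −log10 q of at least 2 there were 8 with Nkx2-1 deletion (12.7%), 3 with ectopic Sox2 alone (1.51%) and 0 in wildtype (2.74%). Here q is the p-value of a summit adjusted by the authors' peak caller over the genome.

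**Figure D1:**
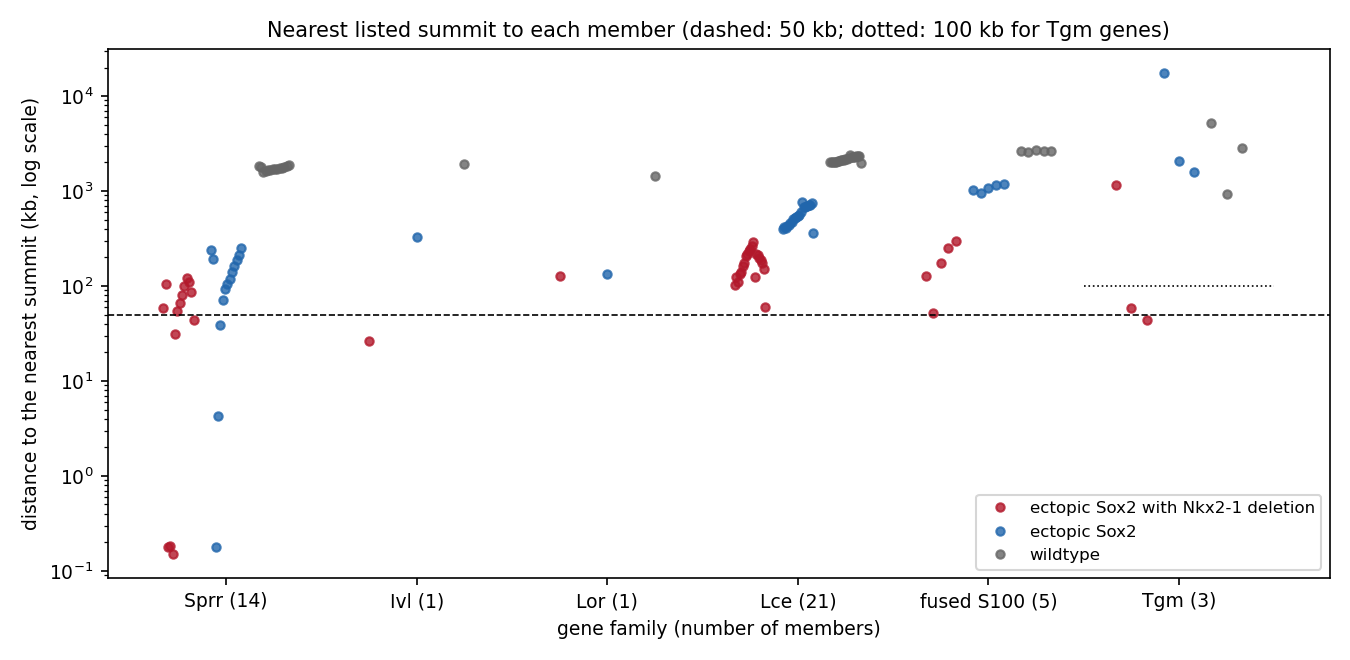
Distance from each of the 45 genes to the nearest listed summit (kb, log scale) by gene family, with a point per gene and library; the dashed line is at 50 kb and the dotted line at 100 kb. The Sprr2a copies are the lowest points in both libraries with ectopic Sox2, and no wildtype point lies below 935.1 kb.

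The summits at the Sprr2a copies fell at similar distances before each gene. With Nkx2-1 deletion, each copy had a summit close to its start, 180 bp before Sprr2a1, 183 bp before Sprr2a2 and 151 bp before Sprr2a3. A further summit lay 4.10 kb before Sprr2a1, 4.26 kb before Sprr2a2 and 4.06 kb before Sprr2a3. With ectopic Sox2 alone, 1 summit lay 179 bp before Sprr2a1 and the other 4.27 kb before Sprr2a2. Each place was therefore listed before all 3 copies with Nkx2-1 deletion and before 1 copy with ectopic Sox2. The 2 summits of a copy lay 3.92 kb apart at Sprr2a1, 4.08 kb at Sprr2a2 and 3.91 kb at Sprr2a3. Whether the upstream regions are copies of 1 sequence was not tested. Sprr2a2, the middle copy, had all 6 summits within 50 kb with Nkx2-1 deletion. If the copies are read together, these would be 2 places, and 605 of the 21887 genes (2.76%) had 2 or more summits.

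The summits close to the start had 69 fragments at Sprr2a1 (interval 53.7 to 87.3, chr3:92215540-92215778), 57 at Sprr2a2 (43.2 to 73.9, chr3:92250210-92250600) and 71 at Sprr2a3 (55.5 to 89.6, chr3:92285056-92285338) with Nkx2-1 deletion. With ectopic Sox2, the Sprr2a1 summit had 20 fragments (12.2 to 30.9, chr3:92215568-92215808). The 3 intervals with Nkx2-1 deletion overlap each other, but because reads of the shared sequence cannot be assigned, these counts do not show whether the copies differ.

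The upstream summits held more fragments than those close to the start, with intervals that overlap at each copy, and at Sprr2a2 and Sprr2a3 they had the lower fold and −log10 q. They had 92 fragments before Sprr2a1 (74.2 to 112.8, chr3:92211597-92211862), 73 before Sprr2a2 (57.2 to 91.8, chr3:92246293-92246525) and 80 before Sprr2a3 (63.4 to 99.6, chr3:92281144-92281343) with Nkx2-1 deletion. With ectopic Sox2, the summit before Sprr2a2 had 42 fragments (30.3 to 56.8, chr3:92246260-92246513). The intervals of the copies again overlap.

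**Figure D2:**
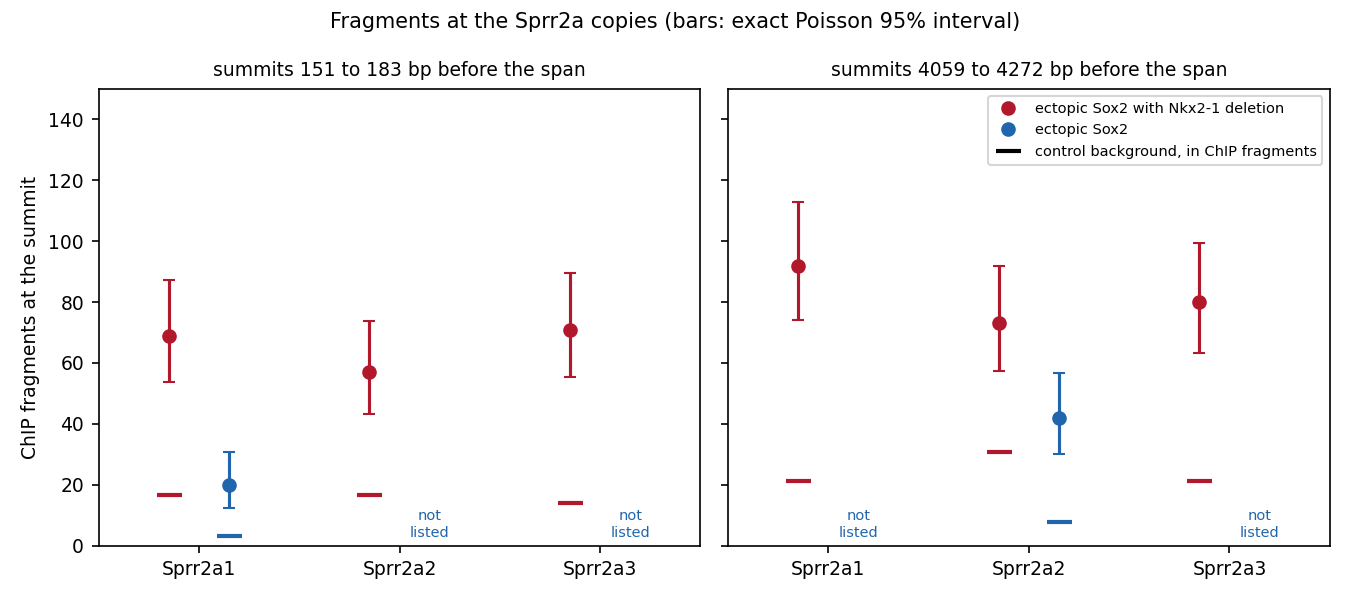
ChIP fragments (points, with exact Poisson 95% intervals) and the control background expressed in ChIP fragments (short bars) at the 2 places before each Sprr2a copy. Fragments with Nkx2-1 deletion lie between 57 and 92 at all 6 summits, and 1 copy per place was listed with ectopic Sox2, with 20 and 42 fragments.

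By the authors' fold enrichment, a ratio over the local control, these were weak summits although they held many fragments. Folds ran between 2.28 and 4.44 with Nkx2-1 deletion, where the median of the list was 5.73, and were 4.59 and 4.63 with ectopic Sox2, where the median was 6.56. Their −log10 q ran between 1.46 and 8.41 with Nkx2-1 deletion (median of the list 5.97). It was 2.25 and 6.06 with ectopic Sox2 (median 6.04). By q, then, they lay on both sides of the median in each list. The upstream summit of Sprr2a2 had the lowest fold of all 2589 summits with Nkx2-1 deletion.

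The control background at these positions was at the high end of the list with Nkx2-1 deletion. There it was 9.76 to 21.1 times the genome-wide background, where the median over all listed summits was 3.25 times, and the share of all listed summits with a background at least as high lay between 0.232% and 7.49% for the 6. With ectopic Sox2 it was 4.10 times at the Sprr2a1 summit and 10.3 times at the Sprr2a2 summit, against a median of 2.46 times, and 40.2% of all listed summits had a background at least as high as the Sprr2a1 summit and 7.42% as the Sprr2a2 summit. The ChIP fragments stood at 39.3 to 63.4 times the mean coverage with Nkx2-1 deletion and at 26.2 and 55.0 times with ectopic Sox2. The part that the high control background and the identical copies have in these summits was not tested.

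**Figure D3:**
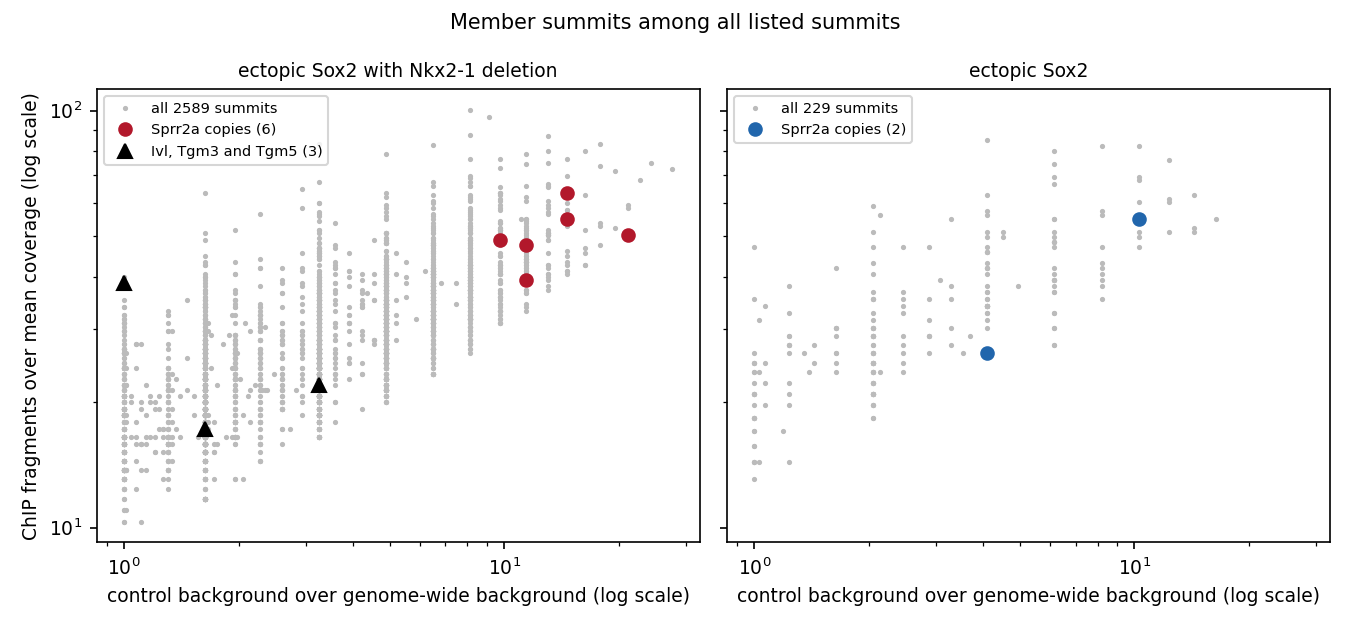
ChIP fragments over the library's mean coverage against the control background over the genome-wide background (both log scales) for every listed summit, with Nkx2-1 deletion on the left and ectopic Sox2 alone on the right. The 6 Sprr2a summits with Nkx2-1 deletion lie at the high end of the control background, while the Tgm3 summit lies at the genome-wide level.

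Regions at both places were listed in the 2 libraries with ectopic Sox2, and their fragments are given after division by the depth ratio of 1.90. Each ratio sets 1 library against another at 1 copy, the copy listed in both, with counting error only, so it has no replicate check. The intervals do not cover how reads of sequence shared by the copies were placed, so the ratios do not show whether the conditions differ. The ectopic Sox2 list holds no value for the other copies, so sums over the copies were not compared. At the start of Sprr2a1, where the summits were 1 bp apart, the depth-scaled ratio of Nkx2-1 deletion over ectopic Sox2 was 1.82 (exact conditional 95% interval 1.09 to 3.15). Upstream of Sprr2a2, where the summits were 10 bp apart, it was 0.914 (0.617 to 1.37). After subtraction of the control background the ratio was 1.64 at the start of Sprr2a1 and 0.651 upstream of Sprr2a2. None of the member summits overlapped a wildtype region.

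A summit inside a promoter window was rare in these lists. With Nkx2-1 deletion 35 of 17492 genes with a RefSeq promoter sequence (0.2%) had a summit within the 300-base window, and Sprr2a1, Sprr2a2 and Sprr2a3 were 3 of them. With ectopic Sox2 there were 29 such genes (0.166%), Sprr2a1 among them, and in wildtype 16 (0.0915%), none a member. This window was chosen after the summits were seen. The 3 genes count as 1 sequence for the reason given above.

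In the sequences shown above, the summit fell 20 to 24 bases before the ACAAAG core at each copy, at base 71 of the Sprr2a1 window and base 68 of the Sprr2a2 window with Nkx2-1 deletion, and at base 72 of the Sprr2a1 window with ectopic Sox2. In the Sprr2a3 window the summit was at base 100 and the core at bases 120 to 125, with bases counted from the 5′ end of the window. Because the copies share this sequence, their offsets are not separate observations. On either strand, ACAAAG was found in 16.8% of all 21263 promoter windows, so a match by itself is common. Of the 44 members with a promoter sequence, 9 held it, Sprr2a1, Sprr2a2 and Sprr2a3 among them. The other SOX core searched, ACAATG, was held by 10 members and by 11.0% of all windows.

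The Sprr2a windows differed from those of the other Sprr2 genes. On global alignment, the Sprr2a copies shared 45.3% to 50.6% of bases with the other 7 Sprr2 genes, which among themselves shared 59.4% to 88.7%. The same alignment gave similar values for Sprr2a1 against Sprr genes outside Sprr2: 46.4% with Sprr1a, 47.2% with Sprr1b, 46.8% with Sprr3 and 45.3% with Sprr4. All 7 other Sprr2 windows held the octamer ATTTGCAT, which 1.66% of all promoter windows hold, and all 7 held TGANTCA (6.99% of all windows) and TATAAA (12.6%). None of these letters was found in the Sprr2a windows, but the windows do not line up. The longest run that Sprr2a1 and Sprr2b share, the 18 bases accagcccattacaggga, begins 5 bases after the annotated start of Sprr2a1 and 80 bases before that of Sprr2b, which puts the 2 windows 85 bases out of step. At that shift the place of the TATAAA of Sprr2b lies past the end of the Sprr2a1 window, so its absence there is set by the window. The places of the octamer and TGANTCA of Sprr2b lie inside the Sprr2a1 window at that shift, so this does not hold for them. Over all 44 members, 14 held TGANTCA, among them Ivl, Lor, Flg, Flg2, Rptn, Sprr1a and Sprr1b.

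Sprr2b and Sprr4 were near a summit only by distance. Sprr2b had the 2 summits of Sprr2a3 within its window with Nkx2-1 deletion, 31.6 kb and 35.5 kb away, and Sprr4 had a summit 44.3 kb away that it shared with Ivl. The other 9 Sprr genes had none within 50 kb, and the farthest was 122.8 kb from a summit with Nkx2-1 deletion. The nearest of them were Sprr2d at 54.0 kb and Sprr1a at 58.9 kb, just outside the window. Sprr1a, Sprr1b and Sprr3 encode further cross-bridging proteins of squamous epithelium, and with ectopic Sox2 alone Sprr1a was 237.6 kb from the nearest summit.

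Ivl encodes involucrin, the early scaffold of the envelope. It had 1 summit with Nkx2-1 deletion, 26.1 kb from the gene on its downstream side, with a fold of 5.79, a −log10 q of 4.11 and 25 fragments (16.2 to 36.9) at chr3:92544606-92544937. The control background there was 1.63 times the genome-wide level. With ectopic Sox2 the nearest summit lay 324.5 kb away and in wildtype 1932 kb away.

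Lor, which encodes loricrin, the most abundant protein of the epidermal envelope, had no summit in its window in any library. The nearest lay 128.6 kb away with Nkx2-1 deletion, 132.5 kb away with ectopic Sox2 and 1441 kb away in wildtype. The 21 Lce genes, whose products are added late, also had 0 members near a summit in each library. Their nearest summits lay 60.1 to 293.5 kb away with Nkx2-1 deletion (median 176.5 kb), 358.4 to 771.4 kb away with ectopic Sox2 (median 530.8 kb) and 1966 to 2379 kb away in wildtype (median 2138 kb).

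The 5 fused S100 genes encode large repeat proteins: filaggrin (Flg), which aggregates keratin filaments, filaggrin 2 (Flg2), hornerin (Hrnr), repetin (Rptn) and trichohyalin (Tchh), which hardens the inner root sheath of the hair. None had a summit within 50 kb in any library. Their nearest summits lay 52.5 to 297.6 kb away with Nkx2-1 deletion (median 175.0 kb), 950.9 to 1196 kb away with ectopic Sox2 (median 1073 kb) and 2558 to 2681 kb away in wildtype (median 2634.5 kb). Flg2 came closest with Nkx2-1 deletion, at 52.5 kb, just outside the window. That summit lay 15 bp from Crnn, the gene of cornulin, a protein of squamous epithelium found in the oesophagus, with a fold of 6.12 and 21 fragments (13 to 32.1) at chr3:93144625-93144888. Its control background was at the genome-wide level.

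Among the cross-linking enzymes, Tgm3 had the summit with the highest fold of all 9. Tgm3 encodes the epidermal transglutaminase of hair and upper epidermis. Its summit with Nkx2-1 deletion had 56 fragments (42.3 to 72.7) at chr2:129928733-129929060, a fold of 15.3, rank 6 of the 2589 summits by fold, and a −log10 q of 23.1. It lay 58.9 kb before the annotated gene span, with the control background at the genome-wide level, and Tgm3 was the nearest protein-coding gene. The nearest summit to Tgm3 was 2052 kb away with ectopic Sox2 and 935.1 kb away in wildtype.

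Tgm5, a transglutaminase of the upper epidermis, had 1 summit with Nkx2-1 deletion, 43.4 kb before its start site, with 32 fragments (21.9 to 45.2), a fold of 4.85 and a −log10 q of 3.75 at chr2:121129148-121129432. The nearest gene to that summit was Lcmt2, a methyltransferase gene 8.04 kb away, and the transglutaminase gene Tgm7 lay 12.9 kb away. Tgm1, which encodes the membrane-bound transglutaminase of keratinocytes, had no summit within 100 kb in any library, the nearest being 1162 kb away with Nkx2-1 deletion, 17397 kb with ectopic Sox2 alone and 5211 kb in wildtype.

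The chromosome 3 members span 1.37 Mb (chr3:92080271-93449077) and hold 50 protein-coding genes, 36.5 genes per Mb against 8.13 over all chromosomes. This span held 8 summits with Nkx2-1 deletion, 2 with ectopic Sox2 alone and 0 in wildtype. The density was 5.84 summits per Mb with Nkx2-1 deletion, against 1.03 on the rest of chromosome 3, 1.46 with ectopic Sox2, against 0.148, and 0 in wildtype, against 0.258. Without the Sprr2a copies the span held 2 summits with Nkx2-1 deletion, near Ivl and Crnn, or 1.46 per Mb, and 0 with ectopic Sox2. The nearest wildtype summits lay 1441 kb to one side of the span and 2621 kb to the other.

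**Figure D4:**
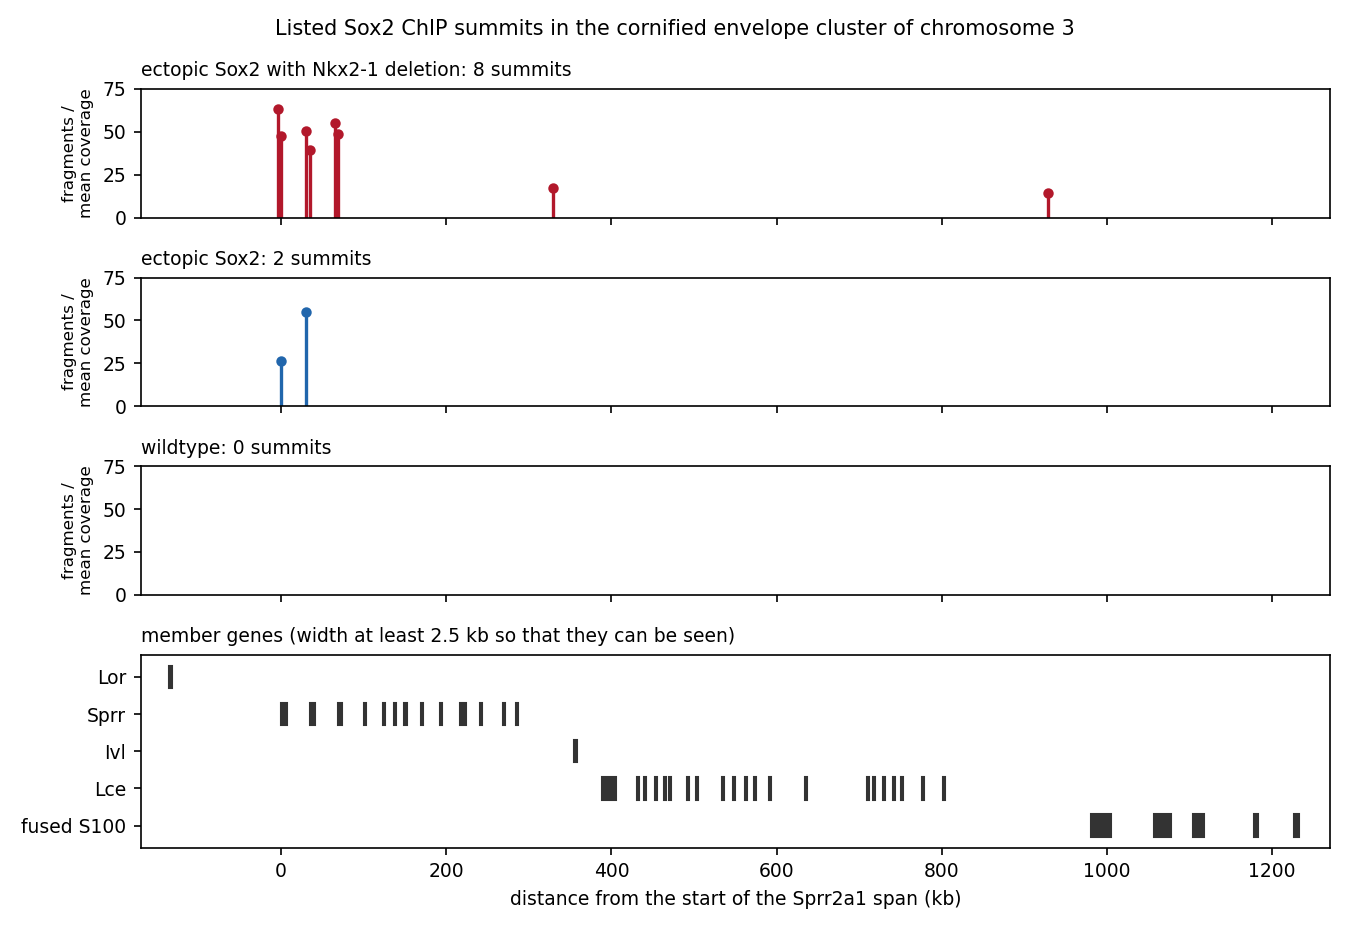
Listed summits along the chromosome 3 cluster in the 3 libraries, as fragments over mean coverage (linear scale), against the distance from the start of Sprr2a1 in kb, with the member genes below. Of the 8 summits with Nkx2-1 deletion, 6 stand at the left over the Sprr2a copies, as do both summits with ectopic Sox2, and the Lce genes have none.

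The other genes of cornification were taken from 5 lists, written with earlier results of these data known. A share above the background is therefore no test of these lists. The background at 50 kb was 13.1% of all genes with Nkx2-1 deletion, 1.53% with ectopic Sox2 alone and 2.85% in wildtype. Fragments given for these lists are not scaled to depth, so they do not compare the libraries. Depth with Nkx2-1 deletion was 1.90 times that with ectopic Sox2 and 1.51 times that of wildtype. Among 22 further genes of the epidermal differentiation complex, 8 (36.4%) were near a summit at 50 kb with Nkx2-1 deletion, 0 with ectopic Sox2 alone and 6 (27.3%) in wildtype. They rested on few summits: S100a3, S100a4, S100a5, S100a6, S100a7a and S100a8, genes of calcium-binding proteins at the end of the complex, shared 1 summit with Nkx2-1 deletion, with 76 fragments (59.9 to 95.1) and a fold of 6.63, and another in wildtype with 21 fragments (13 to 32.1). The other 2 genes were Crnn and Smcp, and the summit counted for Smcp is that of Ivl.

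Of 17 other proteins of the envelope and cornified layer, 6 (35.3%, background 13.1%) had a summit with Nkx2-1 deletion, 1 (5.88%, background 1.53%) with ectopic Sox2 alone and 2 (11.8%, background 2.85%) in wildtype. Ppl encodes periplakin, a plakin scaffold of the envelope, and its summit had 43 fragments (31.1 to 57.9) and a fold of 8.00 with Nkx2-1 deletion. Calml3, a calmodulin-like gene of stratified epithelium, had a summit with 57 fragments (43.2 to 73.9) with Nkx2-1 deletion and one with 35 (24.4 to 48.7) in wildtype. Anxa1, the gene of annexin A1, had 4 summits with Nkx2-1 deletion, the highest with 140 fragments (117.8 to 165.2), and 2 in wildtype, the highest with 49 (36.3 to 64.8). The Calml3 region and 2 of the 4 Anxa1 regions overlapped a wildtype region. Cnfn, the gene of cornifelin, had 1 summit with 32 fragments with Nkx2-1 deletion, and Pkp1, the gene of the desmosomal plaque protein plakophilin 1, had 2, with 36 and 65. Dsc1, which encodes a desmosomal cadherin, had 2 with Nkx2-1 deletion, with 23 and 58 fragments, and was the 1 gene near a summit with ectopic Sox2, with 21.

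Envelope lipid and protease genes had 2 of 18 members (11.1%) near a summit with Nkx2-1 deletion, below the background of 13.1%, namely Abca12, a lipid transporter with 2 summits of 36 and 37 fragments inside the gene, and Prss8, a protease gene with 1 of 41 fragments. The ectopic Sox2 and wildtype lists had 0. Of 6 other transglutaminase genes, Tgm7 alone was counted at 50 kb with Nkx2-1 deletion (1 gene, 16.7%), and 2 genes at 100 kb (background 20.7%), Tgm7 and Epb42, both on the summit of Tgm5, and neither other library had any. Of 16 regulators of cornification, 4 (25%, background 13.1%) had a summit with Nkx2-1 deletion, Prdm1, Grhl1, Trp63 and Arnt, 0 with ectopic Sox2 alone and 1 (6.25%, background 2.85%) in wildtype, Trp63. Prdm1, a repressor active in terminal differentiation, had 3 summits with 32 to 64 fragments, and Grhl1, a grainyhead factor of the epidermis, and Arnt, the partner of the Ahr receptor, had 1 each with 40. Trp63, the central factor of squamous epithelium, had 5 summits inside the gene with Nkx2-1 deletion, with 21 to 83 fragments, and 1 in wildtype with 19. The wildtype region of Trp63 lay within the region of 83 fragments.

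**Figure D5:**
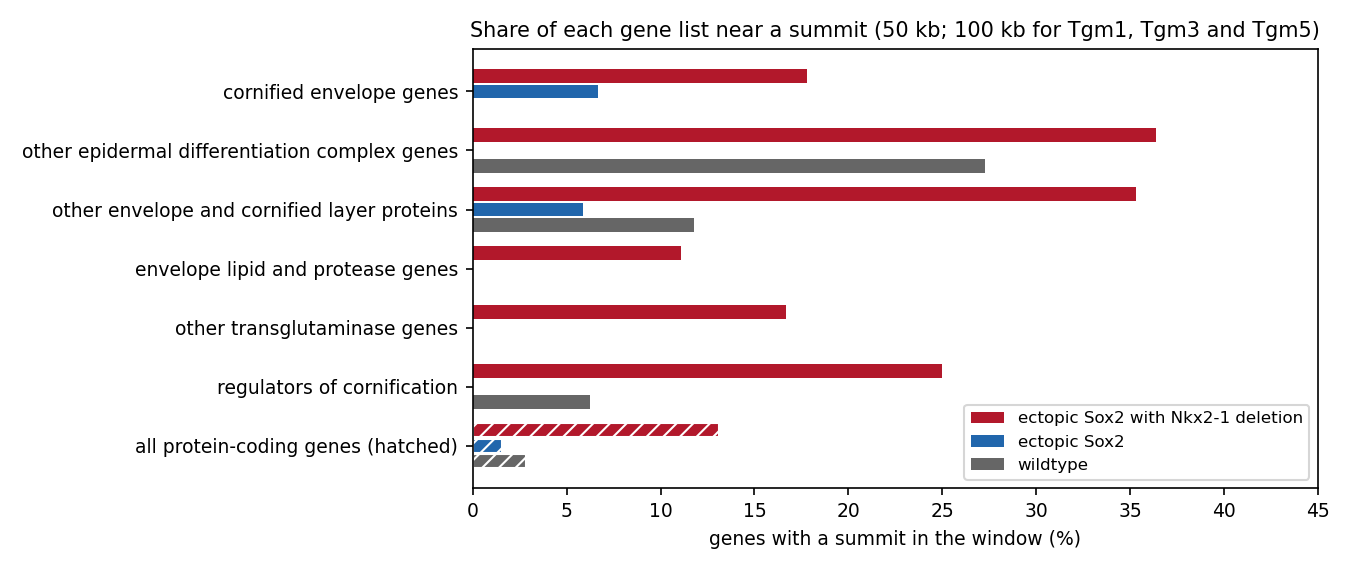
Share of each gene list with a summit in its window (bars, %), by library, with all protein-coding genes hatched at the bottom. The window is 50 kb, except 100 kb for Tgm1, Tgm3 and Tgm5 among the cornified envelope genes. The cornified envelope genes stand at 17.8% with Nkx2-1 deletion and 6.67% with ectopic Sox2, and other genes of the epidermal differentiation complex at 36.4% with Nkx2-1 deletion and 27.3% in wildtype.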

How the data were processed

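Per the submitters' processing notes, Bowtie2 2.2.9, SAMtools 1.4, MACS2 2.1.1 and HOMER 4.8.3 were used with build mm10. The authors deposited 1 MACS2 list for each Sox2 ChIP library, with a score, a fold enrichment ratio, −log10 p, −log10 q and positions for each summit, all the authors' own values. The sources used here do not give the control (input or IgG) behind each list, the threshold or any filter on duplicate or multiply mapped reads.

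Positions are printed counting from 1. MACS2 writes the fold as (pileup + 1) / (background + 1) and p as a Poisson upper tail, so both fix the ChIP pileup, which came out as whole fragments (tolerance 0.02) for 100% of summits (1 summit with Nkx2-1 deletion had several solutions), a step checked on simulated data. Mean coverage is the genome-wide background divided by the pileup scale. Distances used RefSeq spans, and motifs the RefSeq promoter windows of 44 of the 45 members. Scripts ran in Python 3.11.15 with SciPy 1.17.1 and Biopython 1.88. Summits per Mb used chromosome lengths from the first to the last annotated gene. The members and lists were chosen with earlier results of these data known. Every member with a summit is named, and the rest are given by family. Windows, thresholds, overlap and background subtraction were varied. The 6 input and IgG libraries are not analysed here.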

Additional observations from a re-analysis of the deposited data

How the results depend on the processing

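Counts with Nkx2-1 deletion depended on the window and on the weaker summits. Against 8 genes, 3 were near a summit within 10 kb (the Sprr2a copies, 6.47% of all genes) and 15 of 45 within 100 kb (20.7%). With a −log10 q of at least 5 there were 5 (8.83% of all genes at 50 kb). By nearest gene there were also 5, a count without a background, since the share of all genes under that rule was not computed. Against 9 separate summits, 5 remained with −log10 q of at least 5, and of the 8 in the chromosome 3 span, 4 did. With ectopic Sox2, 5 genes were near a summit within 100 kb, against 3, and with −log10 q of at least 5 there was 1 summit near members, which was also the 1 left in the span, against 2. Scaled to the depth of the ectopic Sox2 library, 8 of the 9 summits reached that list's lowest −log10 p, and 9 did at wildtype depth. At wildtype depth the scaled −log10 p rose although fragments fell, at Tgm3 to 33.9 with 37.2 fragments from 29.1 with 56. These counts therefore do not show what a shallower library would list. The summits were also picked as listed with Nkx2-1 deletion, so this scaling says nothing about depth as a cause. The changes in counts follow from the number of summits kept or the genes each can reach.

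The settings on the Sprr2a copies were chosen after seeing the data. Without the Sprr2a summits, 4 of the 45 genes (Ivl, Sprr4, Tgm3 and Tgm5) and 3 summits remained with Nkx2-1 deletion, 2 in the span. Of all genes, 13.1% were near a summit at 50 kb and 20.7% at 100 kb in that library. With ectopic Sox2, 0 genes and 0 summits remained. With the copies as 1 locus there were 5 summits with Nkx2-1 deletion and, as 1 gene, 1 gene with ectopic Sox2. Wildtype counts were 0 under every setting run, and the sharing of regions did not change with the overlap rule. No paired analysis was possible because each condition has 1 library, and no library was left out for the same reason.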
